A study of Mus musculus with 35 samples.

Results

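NMuMG cells, epithelial cells of the mouse mammary gland (WT, strain E9 in the labels), were followed in the vehicle DMSO, and the step from 48 h to 72 h is described here. The protocol given with the samples has TGF-β at 2 ng/ml in time course experiments, renewed with a medium change every 2 days. With such renewal, the time since fresh medium would differ between 48 h and 72 h. It cannot be told apart here from the time in the course. The titles place the DMSO and JNKi samples in an EMT time course, but the labels do not state outright that these cells received TGF-β, and no untreated group is part of the comparison. The groups compared were DMSO at 48 h and DMSO at 72 h, with 2 libraries each. The same step in cells given JNKi, named as an inhibitor of the stress-activated kinase JNK with no compound given, served as a comparison, again with 2 libraries a group. All genes with a mean normalized read count of at least 10 at 48 h or at 72 h in DMSO were taken, which gave 12415 of 20261 genes in the table. Members just inside that limit were Bmpr1b and Snord89, each with a larger group mean of 10, and members just outside were Slc22a18 and Mlxipl, at 9.95. Whether the replicates are separate cultures is not in the labels, and the p-values therefore rest on a spread between libraries that may be technical. The 48 h libraries held 25.5 and 21.6 M reads and the 72 h libraries 48.6 and 33.6 M, so depth rose together with time. Reads on 523 olfactory and vomeronasal receptor genes, which these cells are not known to use, made up 1.29 and 1.34 RPM (reads per M reads) at 48 h and 1.46 and 1.75 at 72 h. The part of these differences in the results was not tested.

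TGF-β binds a pair of serine/threonine kinase receptors, which phosphorylate SMAD proteins that enter the nucleus and switch genes on or off. In NMuMG cells it drives an epithelial-mesenchymal transition (EMT), in which junctions are remodelled, stress fibres form and matrix proteins are secreted. TGF-β itself is stored in the matrix in a latent form, held there by latent TGF-β binding proteins.

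Among the defining epithelial markers, Cdh1, Krt8, Krt18 and Krt19 were high in all 4 DMSO libraries, whereas Epcam was at 0, 0, 0.6 and 0. The summed level of the 5 epithelial markers was 313486 and 329767 at 48 h and 272421 and 222544 at 72 h. Of the leukocyte markers, Cd14 and Cd68 passed a mean of 10, while Ptprc was at 2.3 and 1.4 at 48 h and at 0.6 and 1.8 at 72 h. The 6 leukocyte markers summed to 1123 and 1134 at 48 h and 1142 and 953 at 72 h. None of the 3 adipocyte markers reached 10, Plin1 and Thy1 were at 0 in all 4 libraries, and of 5 fibroblast markers only Pdgfra reached 10. The 5 fibroblast markers together gave 29.2 and 29.9 at 48 h and 27.2 and 24.7 at 72 h. The 4 endothelial markers summed to 160 and 191 at 48 h and 206 and 240 at 72 h, nearly all of it Cdh5, with Tek at or below 1.2 in each library.

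From 48 h to 72 h, 37 genes passed the test (limma on log2 of the value plus 1, Benjamini-Hochberg adjusted p under 0.05, over all 12415 genes), which is 0.298% of the genes tested. Of these, 28 rose (0.226%) and 9 fell (0.0725%). Rises of at least 2-fold numbered 18 (0.145%) and falls of that size 1 (0.00805%). Components of the basement membrane and other matrix genes were among those that rose, and ribosomal protein genes among those that fell. Most genes moved little: 91.7% of members lay within 0.5 of 0 on the log2 scale, and the median difference was 0.01. The groups did not overlap in any of the 37 called genes. Of all members, 24.5% were without overlap and higher at 72 h and 24.4% without overlap and lower. With 2 libraries a group, a called gene is nearly always without overlap, so here and below this adds no support to a call. In bulk RNA, fewer cells of a kind and less RNA per cell cannot be told apart.

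**Figure D1:**
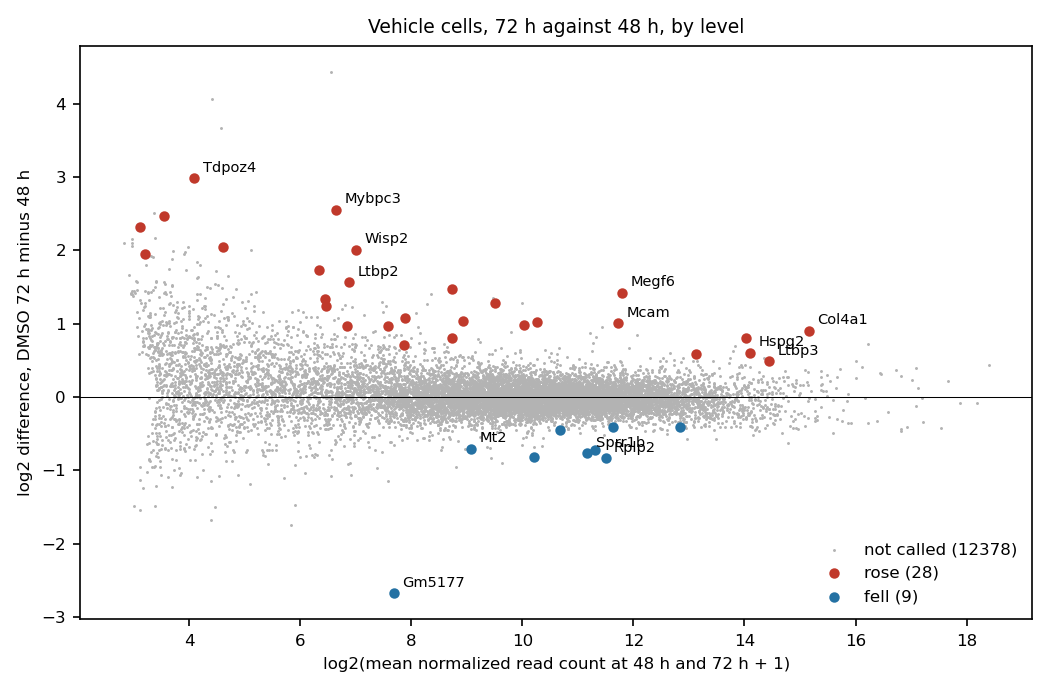
Difference between 72 h and 48 h in DMSO on the log2(value + 1) scale (vertical axis) against the log2 of the mean normalized read count plus 1 (horizontal axis) for 12415 genes; red points rose (28), blue points fell (9), grey points were not called. The called genes span the range of levels, and Gm5177 lies below all other called genes.

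The number of called genes rested on single libraries. Without 72 h replicate 2, 2 of the 37 were called, Wisp2 and Gm5177, and these were the 2 that stayed called with each of the 4 libraries left out in turn. Without 48 h replicate 1, 17 genes were called, and without 48 h replicate 2, 14. Without 72 h replicate 1, 35 genes were called, of which 19 were among the 37. The libraries of the other groups set the estimate of the spread: the 4 libraries alone gave 21 calls and the 10 DMSO libraries alone gave 20. On the reads recovered from the values, edgeR called 35 genes, 33 of them among the 37, and DESeq2 called 268 (2.16% of the genes tested, beside 0.282% for edgeR), 35 of them among the 37.

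Basement membranes are thin sheets in which a type IV collagen network and a laminin network are joined by perlecan and nidogens. Of 19 tested genes of this list, 4 rose and 0 fell, with a median log2 difference of 0.30 beside 0.01 over all members. Col4a1, which codes for a chain of the most widespread type IV collagen, was at 23918 and 27110 at 48 h and at 44284 and 51556 at 72 h. Both 72 h libraries lay above both 48 h libraries, and the gene rose 1.88-fold (log2 difference 0.91, SE 0.11, adjusted p = 0.0022). Col4a2, which codes for the partner chain, went from 11128 and 13151 to 19537 and 23107, a rise of 0.81 on the log2 scale (SE 0.12, adjusted p = 0.0061). These genes lie head to head, and their first exons overlap by 22 bases in RefSeq (GRCm38.p6). Col4a3, a chain of a type IV collagen of more specialised basement membranes, was at 314 and 301 at 48 h and at 532 and 545 at 72 h. Its rise of 0.81 (SE 0.14, adjusted p = 0.017) again left no overlap between the groups. Hspg2, which codes for perlecan, the large heparan sulfate proteoglycan, was at 14033 and 13904 at 48 h. At 72 h it was at 20528 and 22056, a rise of 0.61 (SE 0.09, adjusted p = 0.0061). The list was not uniform: Agrn, which codes for the proteoglycan agrin, was at 46282 and 41909 and then at 50241 and 52241 (log2 difference 0.22, adjusted p = 0.50). Col18a1, the source of endostatin, overlapped between the times, with 40152 and 44284 at 48 h and 41824 and 48146 at 72 h.

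Promoter sequence was looked at for the genes that rose or fell and for the basement membrane list. RefSeq windows from 250 bases before to 50 after a gene's start (GRCm38.p6) were matched for the genes with a single window, 7786 of 12415 members, 22 of the 28 that rose and 6 of the 9 that fell. On both strands the SMAD site CAGACA was found in 5 of those 22 windows and in 15.4% of all windows. The E-box CACCTG was in 6 of 22 beside 17.3%, and the AP-1 site TGANTCA in 3 of 22 beside 5.02%. The core CACCCCAC of the sterol regulatory element was in 1 of 22 beside 2.83%, and in 4 of the 11 basement membrane genes with a window. CCAAT was in 7 of 22 beside 39.9%, and the CArG box, which serum response factor binds, in 0 of 22 beside 1.30%. The other motifs searched were the CHR elements TTTGAA (2 of 22 beside 11.7%) and TTCGAA (1 of 22 beside 2.00%) and the TEAD site GGAATG (1 of 22 beside 11.96%). These are matches of letters, and binding was not measured. Among the 6 genes that fell with a window, AP-1 letters were in 2. The commonest motif (39.9% of all windows), the E-box, the SMAD and TEAD sites and the first CHR element were in 1 each. The others were in 0. In the 11 basement membrane windows the commonest motif was in 6, the SMAD site in 3 and the E-box in 2. The TEAD site and the first CHR element were in 1 each there, the AP-1 site, second CHR element and CArG box in 0. These counts were not tested. The stretches upstream of 2 matrix genes that rose are shown because each holds one match: Hspg2 (chr4:137468553-137468712, plus strand) with the CACCCCAC core on the opposite strand in capitals, and Col5a1 (chr2:27886175-27886424, plus strand) with the SMAD letters, also on the opposite strand, in capitals.
Hspg2: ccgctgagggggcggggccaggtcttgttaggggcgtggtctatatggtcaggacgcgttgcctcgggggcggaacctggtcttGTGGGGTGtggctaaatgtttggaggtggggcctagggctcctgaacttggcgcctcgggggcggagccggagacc
Col5a1: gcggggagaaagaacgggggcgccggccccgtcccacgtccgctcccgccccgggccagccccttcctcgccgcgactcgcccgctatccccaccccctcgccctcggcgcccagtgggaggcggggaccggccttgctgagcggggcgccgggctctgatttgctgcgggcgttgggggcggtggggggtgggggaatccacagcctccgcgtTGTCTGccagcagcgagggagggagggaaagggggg

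Interstitial matrix genes code for the collagens, fibronectin and microfibrils between cells. Of 14 tested members of this list, 1 rose and 0 fell, with a median of 0.45, and 12 were without overlap and higher at 72 h (24.5% over all members). Col5a1, the collagen V chain that helps start collagen I fibrils, was at 288 and 349 at 48 h and at 623 and 679 at 72 h. It rose 2.05-fold (log2 difference 1.03, SE 0.15, adjusted p = 0.0054), with no overlap between the groups. Fn1, which codes for fibronectin, was at 282030 and 303020 and then at 374380 and 422430, a log2 difference of 0.44 (SE 0.17) that did not pass (adjusted p = 0.24). Fbln2 (fibulin 2) was at 122020 and 117730 and then at 151230 and 163650, with an adjusted p of 0.17. Both genes were without overlap, as was Fbn1, the main microfibril protein, at 102 and 164 and then at 220 and 237 (adjusted p = 0.17). The list's median was 0.29 without 48 h replicate 1.

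Enzymes that modify and cross-link collagen gave 0 called genes of 15 with limma, 0 with edgeR and 2 that rose with DESeq2. With an unadjusted p under 0.05, 12 of the 15 were higher, beside 8.29% of all members, and 13 were without overlap and higher, beside 24.5%; the list's median was 0.26. Bmp1, the protease that trims fibrillar procollagens, came closest, at 16010 and 18329 at 48 h and at 22762 and 26903 at 72 h (log2 difference 0.53, SE 0.11, adjusted p = 0.054). Glt25d2 (Colgalt2), which adds galactose to collagen, had few reads, at 4.7 and 1.4 and then at 14.5 and 12.3 (log2 difference 1.96, SE 0.39, adjusted p = 0.042), after a mean of 16.4 at 24 h. It was called under 8 of 20 alternatives and not by edgeR (adjusted p = 0.11) or DESeq2 (adjusted p = 0.15). Col11a2, a chain of type XI collagen, rose from 73.5 and 79.8 to 149 and 153 (log2 difference 0.97, SE 0.18, adjusted p = 0.027). Glt25d2 and Col11a2 belong to neither list and were picked out after their values were seen, as were Mcam, Rufy4, Tdpoz4, Dub1a, Ces2e and 1700029J07Rik below, Fbn1 above, and the uncalled Wnt9a, Itga5, Rmrp, Rprl3 and Rpph1.

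Matricellular proteins sit in the matrix and act on cells more than they bear load. Of 10 tested genes, 1 rose, and the median was 0.33, or 0.21 without 48 h replicate 1. Wisp2 (Ccn5), a CCN family member that lacks the C-terminal domain of its relatives, was at 59.5 and 41.3 at 48 h and at 186 and 222 at 72 h. The rise was 4.03-fold (log2 difference 2.01, SE 0.18, adjusted p = 4e-05). Tnc (tenascin C) was at 47272 and 62302 and then at 71214 and 81698 (log2 difference 0.49, adjusted p = 0.12). Thbs1 and Ctgf, for thrombospondin 1 and connective tissue growth factor, were without overlap and higher at 72 h, with log2 differences of 0.37 and 0.28 and adjusted p-values of 0.26 and 0.37.

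Of 26 tested genes of TGF-β signalling and feedback, 2 rose and 0 fell, with a median of 0.20. The median was 0.12 without 48 h replicate 1. The 2 called genes code for latent TGF-β binding proteins. Ltbp2, a member of that family tied to microfibrils, was at 59.5 and 57 at 48 h and at 177 and 173 at 72 h. It rose 2.97-fold (log2 difference 1.57, SE 0.24, adjusted p = 0.0067). Ltbp3, which holds latent TGF-β in the matrix, was at 18732 and 18205 and then at 26340 and 25612. That smaller step, 0.49 (SE 0.09, adjusted p = 0.017), lay well outside the spread within each pair. Adamtsl2, a secreted protein of microfibrils without protease activity, was at 161 and 296 at 48 h. At 72 h it was at 712 and 521, a rise of 1.47 (SE 0.30, adjusted p = 0.044). Pmepa1, a target of the pathway and its feedback inhibitor, did not pass, at 21050 and 21909 and then at 24857 and 25288 (adjusted p = 0.33).

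**Figure D2:**
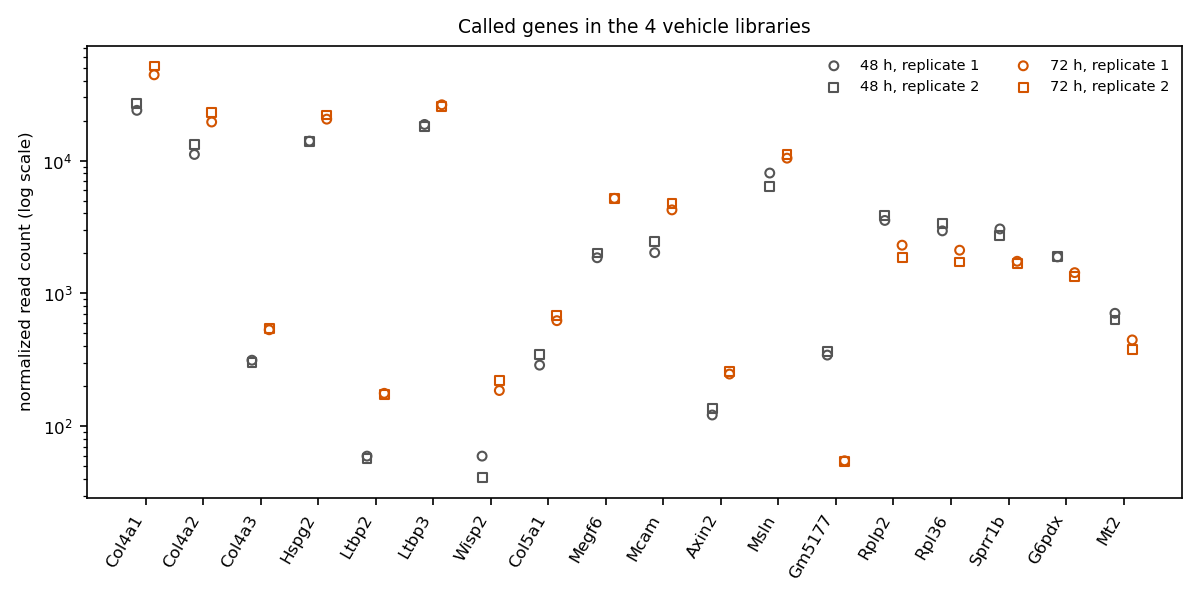
Normalized read counts (vertical axis, log scale) of 18 called genes in the 4 vehicle libraries; grey marks are 48 h, orange marks 72 h, circles replicate 1 and squares replicate 2. In each gene both 72 h values lie on one side of both 48 h values, above for the first 12 genes and below for the last 6. The genes were called on these same values.

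Axin2, a negative regulator and common target of Wnt signalling, was the gene that rose among 15 tested Wnt pathway genes (median 0.17). It was at 121 and 135 at 48 h and at 247 and 259 at 72 h (log2 difference 0.98, SE 0.19, adjusted p = 0.031). Of the 15 genes, 6 with Axin2 included had an unadjusted p under 0.05 and were higher. The median was 0.29 without 48 h replicate 2, 0.40 without 72 h replicate 2 and 0.34 without the filter on low values. Among the ligands, Wnt9a was at 1573 and 2170 and then at 3398 and 3103 (adjusted p = 0.088), and Wnt7a was at 2665 and 3320 and then at 4788 and 4718 (adjusted p = 0.11).

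Genes outside the lists also rose. Megf6, a protein with many EGF-like repeats, was at 1855 and 2016 at 48 h and at 5202 and 5178 at 72 h, a 2.68-fold rise (log2 difference 1.42, SE 0.20, adjusted p = 0.0054). Mcam, the adhesion molecule CD146, was at 2027 and 2455 and then at 4256 and 4763 (log2 difference 1.01, SE 0.14, adjusted p = 0.0054). Bdkrb2, the bradykinin B2 receptor, went from 26.8 and 48.4 to 109 and 136 (log2 difference 1.73, SE 0.27, adjusted p = 0.0084). The groups were apart in all 3, although the 48 h replicates of Bdkrb2 differed most in proportion. Msln, the surface protein mesothelin, was at 8063 and 6354 and then at 10436 and 11095 (log2 difference 0.59, SE 0.11, adjusted p = 0.028). Prnd, a relative of the prion protein, rose from 45.5 and 51.3 to 111 and 138 (log2 difference 1.34, SE 0.25, adjusted p = 0.027). Integrins, the receptors for the matrix, gave 0 called of 20 with limma, 0 with edgeR, 2 that rose with DESeq2, 5 higher at an unadjusted p under 0.05 and a median of 0.16 (0.25 without 72 h replicate 1 and 0.11 without 72 h replicate 2). Itgb1, the shared β1 chain, was at 59256 and 61780 and then at 75878 and 85448 (adjusted p = 0.088), and Itga5, the fibronectin receptor's α chain, at 8808 and 13486 and then at 15112 and 20829 (adjusted p = 0.13).

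Inside the cell, Mybpc3, a myosin-binding protein of heart muscle, was at 31.5 and 24.2 at 48 h and at 138 and 202 at 72 h, a 5.88-fold rise (log2 difference 2.56, SE 0.48, adjusted p = 0.027). Frmpd1, with a FERM and a PDZ domain, was at 357 and 493 and then at 1032 and 1022 (log2 difference 1.29, SE 0.19, adjusted p = 0.0061). Rufy4 was at 628 and 774 and then at 1400 and 1359 (log2 difference 0.98, SE 0.19, adjusted p = 0.030). In the same range, 3 further genes rose by a log2 difference of 1.24 (SE 0.21), 1.08 (SE 0.19) and 1.02 (SE 0.17), with adjusted p-values of 0.017, 0.017 and 0.016. Slfn5, of the schlafen family, went from 44.3 and 59.8 to 123 and 122, Gm7102 from 165 and 138 to 284 and 360, and 2210403K04Rik (Mir22hg), the host transcript of miR-22, from 764 and 862 to 1547 and 1750. Ivl, which codes for involucrin of the cornified envelope, was at 163 and 188 and then at 280 and 297, a rise of 0.71 (SE 0.13, adjusted p = 0.028).

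The other called genes that rose had few reads. Tdpoz4 was at 4.7 and 1.4 at 48 h and at 22.1 and 36.1 at 72 h (log2 difference 2.98), Dub1a, a deubiquitinating enzyme of a multigene family, at 2.3 and 2.8 and then at 20.8 and 16.7 (2.47), and Ces2e, a carboxylesterase, at 2.3 and 1.4 and then at 10.1 and 16.7 (2.32). The gene 1700029J07Rik went from 11.7 and 5.7 to 30.3 and 45.7 (2.05). In the order named, the DMSO means of these 4 genes at 24 h were 11.35, 9.9, 10 and 14.2, each above the mean at 48 h. At 96 h the means were 37.6, 10.6, 18.1 and 99.75. With edgeR and DESeq2 Ces2e was not called (adjusted p = 0.089 and 0.091). These 4 genes and Glt25d2 had 48 h means under 10 and passed the filter on low values through 72 h alone, where they had to be higher; of the 37 called genes, 32 passed it at both times. Members of near-identical families, such as Tdpoz4 and Dub1a, are uncertain where reads fit several copies. Low genes leaned upwards as a class: the median log2 difference was 0.28 over 1050 genes with levels of 10 to 30, 0.14 over 1034 genes of 30 to 100, and 0.02 over 2424 genes of 100 to 500. The differences of largest size did not pass the test. They belonged to RNAs of the enzymes RNase MRP and RNase P: Rmrp was at 5.8 and 8.5 and then at 226 and 133 (log2 difference 4.44, SE 1.35, adjusted p = 0.15), Rprl3 at 0 and 4.3 and then at 44.8 and 31.7 (adjusted p = 0.15), and Rpph1 at 1.2 and 4.3 and then at 48.6 and 36.9 (adjusted p = 0.23). Replication-dependent histone genes had 12 of 12 tested members above 0 and a median of 0.68. Limma called 0 of them, edgeR 0 and DESeq2 1 that rose, and by limma 6 were higher at an unadjusted p under 0.05. That median was 0.32 without 72 h replicate 1, and 0.39 over the members with a mean of at least 50. The part of this shift in the calls was not tested.

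The steepest fall was that of Gm5177, a transcribed pseudogene, from 343 and 365 at 48 h to 54.9 and 54.5 at 72 h, or to 0.157 of the earlier level (log2 difference -2.67, SE 0.19, adjusted p = 2.1e-06). Among 40 tested cytosolic ribosomal protein genes, 2 fell and 0 rose, 28 had an unadjusted p under 0.05 and were lower, beside 6.87% of all members, and the median was -0.30. Rplp2, a protein of the ribosomal stalk, was at 3544 and 3855 and then at 2308 and 1868 (log2 difference -0.83, SE 0.12, adjusted p = 0.0061). Rpl36, of the large subunit, was at 2958 and 3365 and then at 2115 and 1724 (log2 difference -0.72, SE 0.15, adjusted p = 0.0497), just past the threshold. Rpl22l1, a paralog of a large-subunit protein and not in that list, fell from 1398 and 1626 to 836 and 878 (log2 difference -0.81, SE 0.15, adjusted p = 0.024). In all 3 genes both 72 h libraries lay below both 48 h libraries. Rpl4 was at 34473 and 36524 and then at 28941 and 24346 (adjusted p = 0.11), and Rplp0 at 57075 and 57884 and then at 51999 and 42018 (adjusted p = 0.26). In the ribosomal genes named here replicate 2 at 72 h was the lower of the pair except in Rpl22l1, and without it the list's median was -0.16, beside -0.46 without 72 h replicate 1.

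Other lists of short, widely used genes lay below 0 with 0 calls by limma and 0 by edgeR. All 26 tested proteasome genes were below 0 (median -0.18, 9 at an unadjusted p under 0.05, range -0.30 to -0.05), and 30 of 32 nuclear-encoded respiratory chain genes were (median -0.16, 7 at an unadjusted p under 0.05). DESeq2 also called 0 in both. Without 72 h replicate 1 these medians were -0.28 and -0.25, and without 72 h replicate 2 they were -0.11 and -0.08. Atp5b, a subunit of the mitochondrial ATP synthase, was at 25898 and 27555 and then at 23620 and 21661 (adjusted p = 0.25). Transcript length differed between lists. Longest annotated transcripts had a median of 1124 bases in the ribosomal list, 1705 in the proteasome list and 1716 in the respiratory chain list. The median was 3342 over all members and 6450 in the basement membrane list. In the replication-dependent histone list the median length was 1877.5 bases and the median difference 0.68. That difference was 0.32 without 72 h replicate 1 and 0.39 over members with a mean of at least 50. Over all members the median difference was -0.08 in the fifth with the shortest transcripts and 0.07 in the fifth with the longest. Genes that rose had a median length of 4128 bases and genes that fell 1908. The part of length in the calls was not tested.

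Of 20 tested genes that NRF2 controls or that make glutathione, 1 fell and 0 rose, and 12 were lower at an unadjusted p under 0.05 (median -0.27). G6pdx, the first enzyme of the pentose phosphate pathway, was at 1883 and 1892 at 48 h and at 1433 and 1334 at 72 h (log2 difference -0.45, SE 0.09, adjusted p = 0.034). This call was kept under 12 of 20 alternatives, and lost among others without each of the 4 libraries in turn, without the intensity trend, and with libraries of the same time and number in both arms as a random effect (adjusted p = 0.075). Mt2, the metal-binding metallothionein 2, fell from 708 and 630 to 446 and 376 (log2 difference -0.70, SE 0.13, adjusted p = 0.028). Prdx1 (peroxiredoxin 1) was at 23402 and 25506 and then at 19912 and 17575 (adjusted p = 0.23), without overlap. Serpinb6a, an intracellular protease inhibitor, fell from 8244 and 8575 to 6567 and 6079, and Esd (esterase D) from 3566 and 3652 to 2746 and 2692, both by 0.41 on the log2 scale (adjusted p = 0.036 and 0.031). Of 8 tested cornified envelope genes, Ivl rose and Sprr1b fell. Sprr1b, a small proline-rich protein that is cross-linked into that envelope, went from 3059 and 2738 to 1746 and 1672 (log2 difference -0.76, SE 0.13, adjusted p = 0.016), so that these 2 genes moved in opposite directions.

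**Figure D3:**
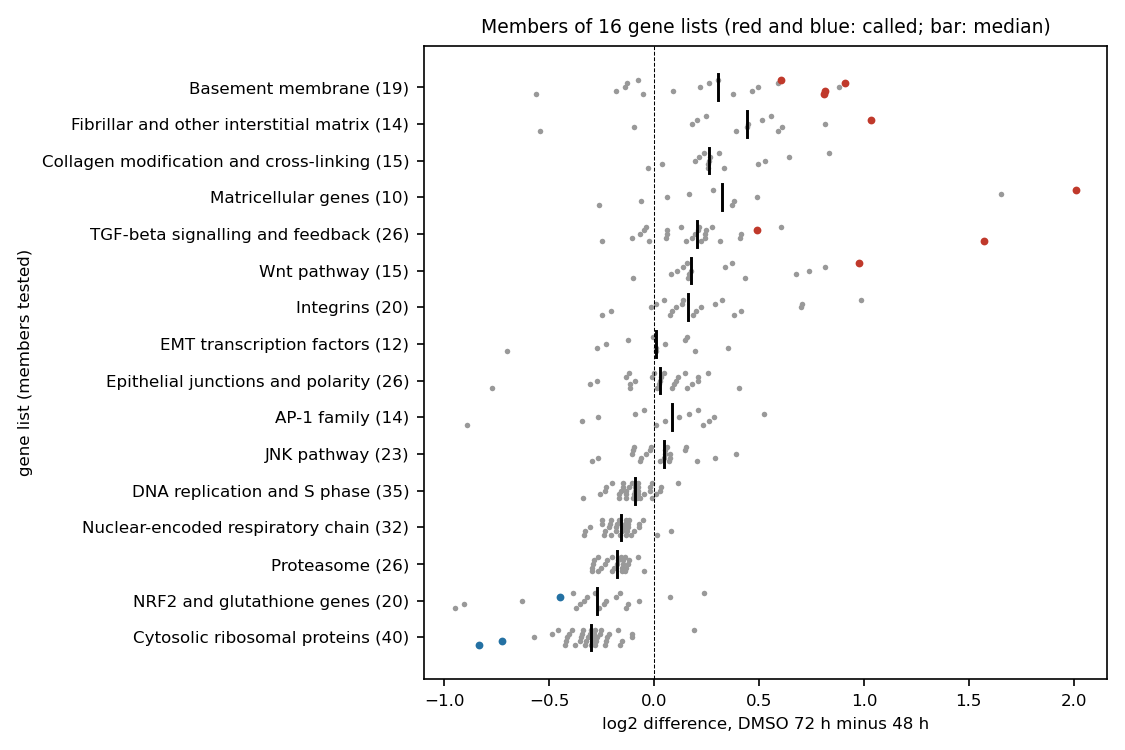
Log2 difference between 72 h and 48 h in DMSO (horizontal axis) of each tested member of 16 gene lists (rows, number of members in brackets); red and blue points passed the test, grey points did not, and the black bar is the list's median. Medians range from -0.30 for ribosomal proteins to 0.45 for interstitial matrix, and the transition's transcription factors, junctions, AP-1 and JNK pathway lie near 0.

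Of the genes commonly read as markers of the transition, those given here did not pass with limma or edgeR. Cdh1 (E-cadherin) was at 9069 and 9622 at 48 h and at 10116 and 8766 at 72 h, with overlap between the groups (log2 difference 0.01, SE 0.14). Cdh2 (N-cadherin) was at 9902 and 10011 and then at 12176 and 12849 (log2 difference 0.33, SE 0.09, adjusted p = 0.12). Vim (vimentin), an intermediate filament protein gained in the transition, was lower at 72 h without overlap, at 71750 and 67794 and then at 56945 and 52479 (log2 difference -0.35, SE 0.10, adjusted p = 0.12). Krt18, a simple-epithelial keratin, was at 131590 and 134020 and then at 107080 and 87562 (adjusted p = 0.12). Acta2, smooth muscle actin, was at 328 and 476 and then at 934 and 1091, a difference of 1.35 with an adjusted p of 0.068. DESeq2 called all of these but Cdh1, with adjusted p-values of 0.039 for Cdh2, 0.010 for Vim, 0.012 for Krt18 and 0.027 for Acta2, and limma called Acta2 with the random effect (adjusted p = 0.041). Of 24 tested smooth muscle and cytoskeleton genes limma and edgeR called 0, DESeq2 called 3 that rose and 1 that fell, and at an unadjusted p under 0.05 there were 6 higher and 3 lower. Of 11 tested keratins limma and edgeR called 0, DESeq2 called 1 that fell, and 4 were lower at that level. The repressors of Cdh1 differed by 0.01 (Snai1), 0.19 (Zeb1) and 0.01 (Zeb2), with standard errors of 0.22, 0.10 and 0.11. Of 12 EMT transcription factors tested, limma and edgeR called 0 and DESeq2 called 1, and 1 was lower at an unadjusted p under 0.05. Of 26 junction and polarity genes all 3 tools called 0, with 1 higher at that level. For the kinase and its best-known substrate, Jun differed by 0.01 (SE 0.15), Mapk8, which codes for JNK1, by 0.05 (SE 0.13) and Mapk9, which codes for JNK2, by 0.03 (SE 0.08). Limma, edgeR and DESeq2 called 0 of 14 AP-1 genes, 0 of which had an unadjusted p under 0.05, and 0 of 23 JNK pathway genes, 1 of which was higher at that level.

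Replication genes gave 0 calls with limma, edgeR and DESeq2. Of 35 replication genes, 31 were below 0 and 17 without overlap and lower, beside 24.4% of all members (median -0.09; -0.03 without 48 h replicate 1, -0.16 without 48 h replicate 2 and -0.06 without 72 h replicate 1), and 0 had an unadjusted p under 0.05. Pcna, the sliding clamp of DNA polymerase, was at 6067 and 5992 and then at 5272 and 5004 (adjusted p = 0.46). Of 35 tested G2/M and mitosis genes all 3 tools called 0, 27 were below 0 and 14 without overlap and lower (median -0.15). By limma 3 were lower at an unadjusted p under 0.05, beside 6.87% of all members. That list's median was -0.06 without 48 h replicate 1 and -0.24 without 72 h replicate 2. In all, 40 of the 48 lists with a tested member held no called gene by limma, and 23 of the 37 called genes were in no list.

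The same step was measured in JNKi cells, whose 4 libraries are in neither DMSO mean. Both arms share 1 estimate of each gene's spread from all 20 libraries, so the p-values of the arms are not separate. There 5 of the 12415 genes passed (0.0403%), all of them among the 37: Wisp2, Ltbp2 and Ivl rose, and Gm5177 and Mt2 fell. That count was 18 without JNKi 48 h replicate 1, 9 without 48 h replicate 2, 8 without 72 h replicate 1 and 1 without 72 h replicate 2. All 37 genes differed in the same direction in JNKi cells, beside 76.2% of all members, and 30 of them had an unadjusted p under 0.05 there, beside 16% of all members. The median log2 difference of the genes that rose was 1.16 in DMSO and 0.78 in JNKi, and that of the genes that fell -0.72 and -0.67. The step was smaller in JNKi for 34 of the 37, which were chosen for their step in DMSO. Over the 9595 members with a mean of at least 200, Pearson's r between both arms' steps was 0.75, a description across genes, which are not independent. Libraries of the same time and replicate number in the 2 arms deviated together (r of 0.61 at 48 h and 0.74 at 72 h across genes), so the arms are not wholly separate measurements.

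The test of the difference between the arms' steps gave 0 called genes with limma, 0 with edgeR and 0 with DESeq2. By limma 191 genes had an unadjusted p under 0.05 (1.54%), 11 of them among the 37. The 37 were chosen for their step in DMSO, which is part of this difference. A raised share among them follows from that choice, and the 11 are no evidence of a difference between the arms. With the likeness of same-time, same-number libraries fitted as a random effect (consensus correlation 0.45), 1 gene was called. Mcam had the smallest p of those 11 (unadjusted p = 0.00071): in JNKi it was at 1938 and 2229 at 48 h and at 2506 and 2216 at 72 h, where the groups overlap. Its step was 0.18 there (SE 0.14) and 1.01 in DMSO. Ltbp3 was at 16118 and 15080 and then at 17250 and 15300 in JNKi, again with overlap, a step of 0.06 (SE 0.09) beside 0.49 in DMSO (unadjusted p of the difference 0.0023). Col5a1 went from 251 and 227 to 341 and 351 in JNKi, a step of 0.54 beside 1.03 (unadjusted p = 0.030). Tdpoz4 and Dub1a, both low and past the filter through DMSO at 72 h alone, had steps of 0.36 and 0.32 in JNKi beside 2.98 and 2.47. By contrast, Col4a3 (0.81 in both arms), Axin2 (0.91 and 0.98) and Rpl36 (-0.74 and -0.72) had nearly the same step, and Ivl had a larger one in JNKi, 0.90 beside 0.71.

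**Figure D4:**
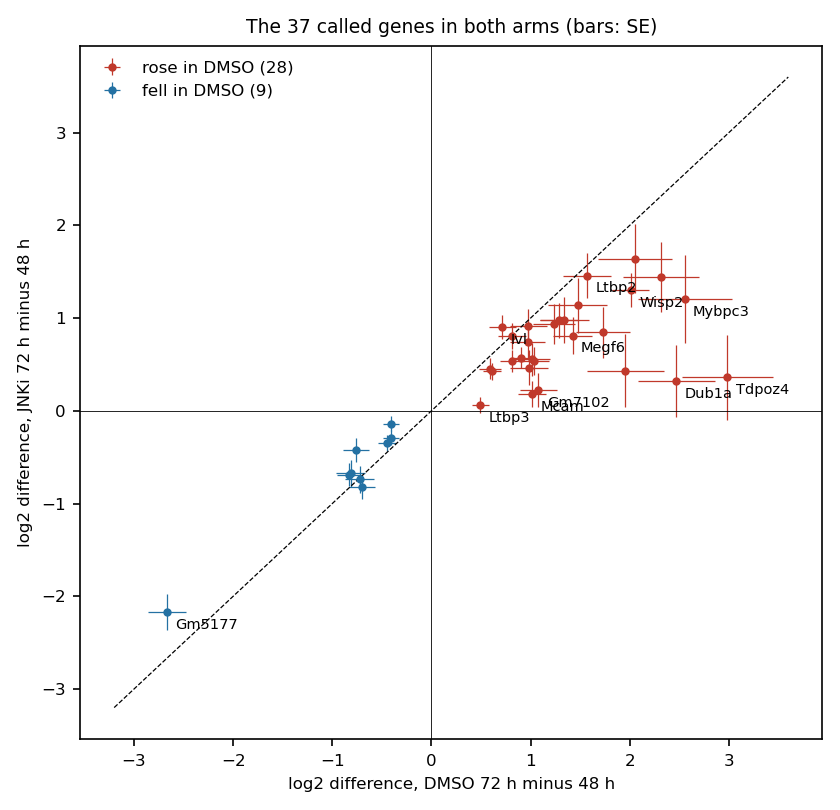
Log2 difference between 72 h and 48 h in DMSO (horizontal axis) and in JNKi (vertical axis) for the 37 called genes, with bars of 1 standard error; red genes rose and blue genes fell in DMSO, and the dashed line marks equal steps. All points lie in the lower left or upper right part of the plot, and 34 lie closer to 0 on the JNKi axis.

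Levels over the whole course place the step. Means of 2 libraries follow, with 48 h and 72 h shared with the comparison above. Col4a1 in DMSO was at 9385 at 24 h (SD 880) and reached 25514, 47920 and then 52961 (SD 749) by 96 h, with 41765 on day 7 (SD 4326). Hspg2 stood at 4384, 13968, 21292, 18659 and 17514 at those times, so that its level at 72 h was above those that followed. Wisp2 climbed throughout, from 12.1 at 24 h to 3361 at 7 days (SD 134). Ltbp3 was at 13124 at 24 h and 17337 at 7 days, with 25976 at 72 h between them. Mcam had 4510 at 72 h (SD 359), 2113 at 96 h (SD 252) and 5873 at 7 days (SD 157), a course with 2 high points. Gm5177 had means of 549 and 354 at the first times, 54.7 at 72 h and 44.5 at 96 h, with its steepest drop within the step from 48 h to 72 h.

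**Figure D5:**
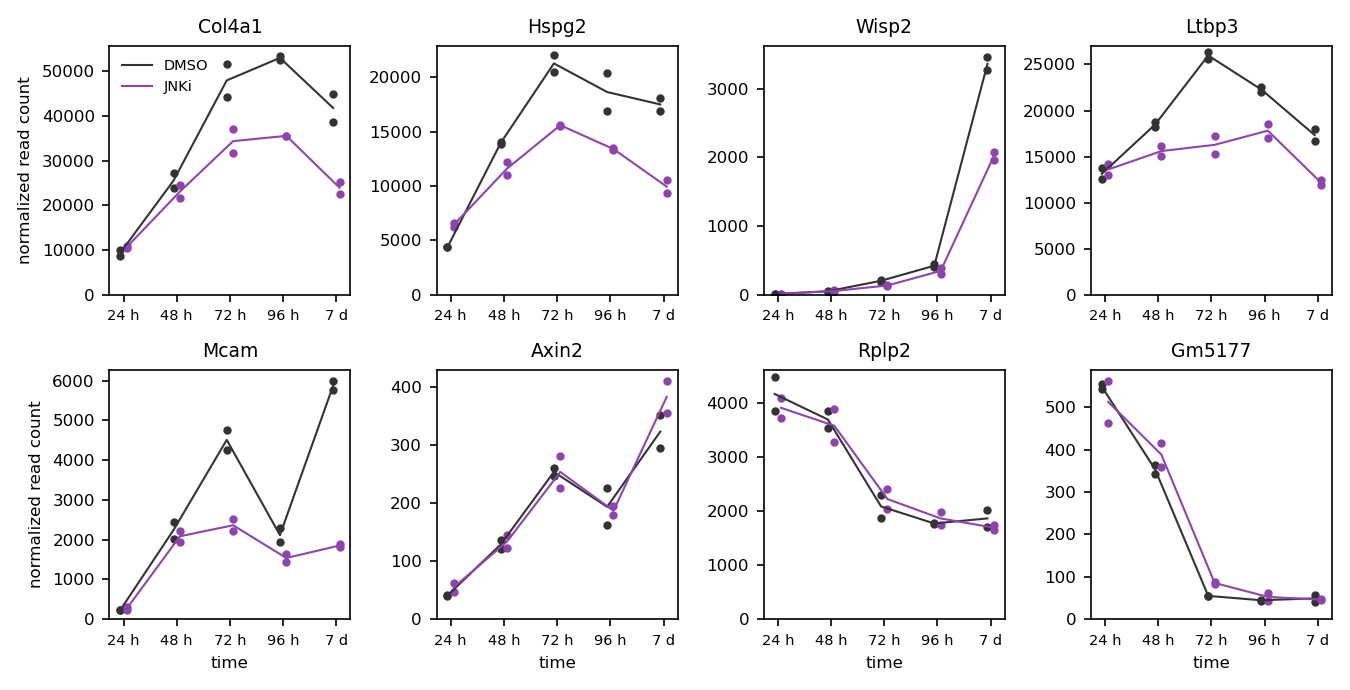
Normalized read counts (vertical axis, from 0) of 8 called genes at the 5 times (horizontal axis, not to scale) in DMSO (black) and JNKi (purple); points are libraries and lines join the means of 2. Gm5177 drops between 48 h and 72 h in both arms, while Wisp2 is highest at 7 days.

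DMSO at 96 h against 24 h is a contrast whose groups hold none of the libraries of the step, though the members were chosen with these data known. In it 36 of the 37 genes differed in the same direction as from 48 h to 72 h, beside 73.4% of all members. The interval from 24 h to 96 h encloses the step, so the same direction is likely for genes chosen for that step. Of the 12415 genes, 8260 were called in this wider contrast. Mybpc3 differed by 6.35 on the log2 scale, Wisp2 by 5.02 and Gm5177 by -3.60 between those times. Col4a1 and Col4a2 differed by 2.50 and 2.51. Adamtsl2 was the exception, with -0.09 beside its rise of 1.47. A difference between 24 h and 96 h that was larger than the step did not mean that a rise went on after 72 h. From 72 h to 96 h the DMSO mean went from 5190 to 2908 for Megf6 and from 1380 to 700 for Rufy4. For Mybpc3 it went from 170 to 325 and for Ivl from 288 to 960.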

How the data were processed

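RNA sequencing values of 20 libraries (DMSO or JNKi, 5 times, 2 replicates) were used; the TGF-β time course was not analysed here. TopHat, HTSeq and DESeq, with the build mm9, were used per the submitters' processing notes, without versions there; strand use in counting is not given in the sources used here. The values deposited by the authors are a signal per gene, called normalized read counts. Each library's values were whole multiples of 1 step (100% within 0.1), which gave reads and depth. The log2 of the value plus 1 was fitted with limma 3.58.1 (R 4.3.3; intensity trend, 10 group means, 20 libraries), two-sided, adjusted by Benjamini-Hochberg over 12415 genes, threshold 0.05; such fold changes understate those of low genes. SE is from the fit. The spread within a group is assumed to be shared by all groups. Chi-square per degree of freedom between replicates' reads, which also grows with depth, was 8.50 in DMSO at 48 h and 27.3 at 72 h. Whether the assumption holds was not tested. Recovered reads were tested with edgeR 4.0.16 (quasi-likelihood) and DESeq2 1.42.0. The script was tested on simulated data. Named genes were the 12 largest called rises and falls with a mean of at least 50 and no overlap, the 6 largest gains and losses in mean, up to 6 per list and 10 fixed genes; others are said to be picked after their values were seen. The members and the 50 gene lists, from general knowledge, were chosen with earlier results of these data known. The replicate numbers are not stated to pair libraries. Alternatives were other pseudocounts, filters, scalings, variance settings, subsets, a block and leaving out each library.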

Additional observations from a re-analysis of the deposited data

How the results depend on the processing

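The 37 calls of DMSO at 72 h against 48 h became 21 with the compared groups alone, 20 with the DMSO arm alone, 19 with a log2 difference of at least 1 and 268 with DESeq2, and ranged from 2 to 35 with 1 library left out. The 5 calls in JNKi became 18 without a filter on low values, 16 with a mean of at least 10 in any group, 16 with upper quartile scaling, 11 with robust variances, 8 with a random effect of time and number, 1 with the compared groups alone, 3 with a log2 difference of at least 1 and 232 with DESeq2, and ranged from 1 to 18 with 1 library left out. The difference between the arms had 0 calls, and 1 with the random effect. Other pseudocounts, TMM and the remaining settings kept the DMSO count within 1.5 times. With the replicate number as a block, calls were 51 in DMSO, 32 in JNKi and 0 for the difference; all 37 and all 5 were among them. The DMSO pairs' deviations correlated at -0.42, and a crossed pairing, added after seeing the data, gave 360, 325 and 0 calls. Signs turned only for genes that were not called: with 1 library left out, Cdh1 ranged from -0.092 to 0.115, Snai1 from -0.16 to 0.18, Zeb2 from -0.14 to 0.16, Jun from -0.10 to 0.12, Mapk8 from -0.015 to 0.12, Mapk9 from -0.0035 to 0.064 and Col18a1 from -0.012 to 0.19. Snai1 gave -0.0001798 with TMM and Zeb2 -0.0048 with edgeR. The cause of these changes was not tested. With 2 libraries a group, the smallest log2 difference that limma called in DMSO had a size of 0.41.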
